A study of Mus musculus with 12 samples.

Results

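Interferon-stimulated genes were followed across 4 stages and sites of the mouse basophil lineage by bulk RNA sequencing. The 38 genes were a list of type I interferon response genes, their transcriptional regulators and the receptor chains Ifnar1 and Ifnar2. The list was chosen with earlier results of these data known. Its genes were taken by symbol from the 32227 genes of the deposited count table. All 38 were in the table, and 35 of them passed the filter on low counts and were among the 15083 genes tested. Ifit3, Mx2 and Ifi44 did not pass.

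The cells were sorted from C57BL/6J wild-type mice, with 3 libraries in each of 4 groups and cells of 4 animals pooled in each library. BaPs were CD200R3+ c-Kit- CLEC12A-high CD34+ bone marrow (BM) cells, taken as unipotent basophil progenitors. Pre-basophils were CD34- CLEC12A-high CD9-low BM cells, which the sample titles call immature basophils. Mature basophils were CD34- CLEC12A-low CD9-high cells, from the BM in one group and the spleen in the other. The labels name no treatment, and the age of the mice was not given in the sources used here.

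Type I interferons bind a receptor made of IFNAR1 and IFNAR2, whose kinases start the signal. STAT2 and IRF9 are parts of a complex that binds interferon-stimulated response elements (ISREs) in promoters, while gamma-activated sequences (GAS) are promoter elements of the response to interferon gamma. The induced proteins sense viral nucleic acid, block virus entry or translation and feed back on the pathway, and many are also transcribed at a low tonic level in cells with no infection. Basophils, rare cells of type 2 immunity armed with IgE through their Fc receptor, complete their maturation in the BM.

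Promoter windows of the members were searched for the cores of both elements. The RefSeq promoter table (GRCm38.p6) held a window for 31 of the 38 members. Dhx58, Zbp1, Oas2, Usp18, Mx1, Mx2 and Rtp4 were not matched. In the 250 bases before the start, the ISRE core (GAAA, any 2 bases, GAAA; either strand, overlapping matches each counted) was found in 13 of the 31 matched members (41.9%), against 3.46% of 27025 genes. The GAS core (TTC, any 3 bases, GAA; a palindrome) was found in 8 of 31 (25.8%), against 8.13% of genes. The letters mark a match and do not show binding. Of 12 tested members with an ISRE core, 3 were called lower in pre-basophils than in BM mature basophils, with a median log2 fold change of -0.22 against -0.52 for 17 tested members without one. For the GAS core the count was 3 of 8, with a median of -0.32 against -0.52 for 21 without one. For comparison, 7 of all 35 tested members (20%) and 11.0% of all tested genes were called lower in pre-basophils. The stretches below are the 150 bases before the start of 5 members that differed between stages, shown because between them they hold both kinds of match, 5′ to 3′ on the strand of the gene, with matches to either motif in capitals. TTTC, 2 bases, TTTC is the ISRE core on the other strand, and adjoining capitals are overlapping matches.
Isg15 (chr4:156200819-156200968, minus strand): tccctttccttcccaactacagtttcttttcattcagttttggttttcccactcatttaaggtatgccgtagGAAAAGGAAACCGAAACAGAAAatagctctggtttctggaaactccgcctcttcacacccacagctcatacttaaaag
Rsad2 (chr12:26456453-26456602, minus strand): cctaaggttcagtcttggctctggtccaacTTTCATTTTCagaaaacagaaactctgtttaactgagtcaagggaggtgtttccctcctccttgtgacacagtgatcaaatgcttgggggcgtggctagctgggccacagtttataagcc
Gbp7 (chr3:142530186-142530335, plus strand): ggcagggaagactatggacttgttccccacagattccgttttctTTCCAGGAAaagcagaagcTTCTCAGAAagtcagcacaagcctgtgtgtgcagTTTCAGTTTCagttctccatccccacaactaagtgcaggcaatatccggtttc
Bst2 (chr8:71537473-71537622, minus strand): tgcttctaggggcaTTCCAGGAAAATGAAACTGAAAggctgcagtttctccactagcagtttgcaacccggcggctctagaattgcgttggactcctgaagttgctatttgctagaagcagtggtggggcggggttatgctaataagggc
Irf1 (chr11:53769864-53770013, plus strand): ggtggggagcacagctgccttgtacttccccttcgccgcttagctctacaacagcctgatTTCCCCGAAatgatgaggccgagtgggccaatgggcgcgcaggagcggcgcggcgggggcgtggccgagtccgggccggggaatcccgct
Isg15 held 3 overlapping ISRE cores, Rsad2 held 1, and Bst2 held 2 that ran into a GAS core. Gbp7 held 1 ISRE core and 2 GAS cores, and Irf1 held a GAS core without an ISRE core. The windows of Ifitm1, Ifitm3 and Irf9, which were also called below, held neither set of letters. For Ifitm1 and Irf9 the RefSeq windows lie inside the GENCODE gene spans given below, so the bases before those GENCODE starts were not searched.

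The 12 libraries held 3596108 to 8151030 counts, and the 38 members took 0.196% to 0.462% of them. Values per library are given as CPM, the counts scaled to a common library total with TMM factors, and 3 counts, the limit that a count of 0 allows, equalled 0.290 to 0.955 CPM for counting error. All 8 basophil markers had counts in every library, and their summed level was 6364 to 21947 CPM. BaP replicate 3 stood apart from the other libraries. Its basophil markers summed to 8484 CPM against 20018 and 17887 CPM in BaP replicates 1 and 2, and its T cell markers summed to 434 CPM against 16.7 and 14.4 CPM. Sums, group means and counts of calls that use it are therefore also given without it. In bulk samples, fewer cells of a type and less RNA per cell cannot be told apart.

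The most abundant member was Ifitm1, a membrane protein that restricts virus entry. Ifitm1 (GRCm38 chr7:140967221-140969825) took 66.2% of the CPM of all 38 members summed over the 4 group means, followed by Ifitm2 with 9.21% and Irf1 with 4.08%. Its share was 71.2% to 75.3% in single mature libraries, 49.9% to 54.4% in pre-basophil libraries, and 52.9%, 53.2% and 35.1% in BaP replicates 1 to 3. Per kilobase of exon, the mean levels of Ifitm1 in BaPs, pre-basophils, and mature basophils of the BM and of the spleen were 802, 1113, 3044 and 3080.1 CPM per kb. Those of Ifitm2 were 459.9, 653, 453 and 302 CPM per kb, and those of Ifitm3 were 78.2, 123, 145 and 108 CPM per kb. Bst2, or tetherin, which holds budding virus at the cell surface, came next with 74.2, 50.9, 49.3 and 57.0 CPM per kb. The BaP means of these 4 genes without BaP replicate 3 were 960.5, 559, 81.2 and 71.1 CPM per kb. At the other end, the mean over the groups was 0.184 CPM per kb for Ifi44 and 0.188 CPM per kb for Mx2, which GENCODE lists as a polymorphic pseudogene. Of the 38 members, 9 stayed under a mean of 5 CPM in every group: Dhx58, Ifit1, Ifit3, Oas2, Oasl2, Mx1, Mx2, Gbp3 and Ifi44. The 3 that were not tested, Ifit3, Mx2 and Ifi44, ran from 0 to 3.20 CPM in single libraries and were each highest in BaP replicate 3.

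The summed level of the 38 members was about the same in both mature groups and lower in both CLEC12A-high groups. From BaPs over pre-basophils to BM and then spleen mature basophils, the group means were 1827 ± 275, 2327 ± 90.3, 4589.9 ± 256 and 4541 ± 381 CPM (SD, n = 3). Without Ifitm1 the means were 949, 1109, 1260 and 1171 CPM, so most of the difference in the sum came from that gene. With BaP replicates 1 and 2 alone, the BaP mean was 1982 CPM, and 931 CPM without Ifitm1.

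By the quasi-likelihood F test of edgeR over the 4 groups, 18 of the 35 tested members (51.4%) differed at an adjusted p under 0.05, against 57.8% of all tested genes. Of these 18, BM mature and spleen mature basophils each held the highest mean for 7, BaPs for 3 and pre-basophils for 1. BaPs held the lowest mean for 11 of the 18. Without BaP replicate 3, 26 members passed, against 65.8% of all tested genes. With the BaP mean taken over replicates 1 and 2, BaPs held the highest mean for 3 and the lowest for 13 of the first 18 members, and the highest for 1 and the lowest for 21 of the 26. The same ranks were not counted over all called genes, so whether these counts are particular to the members was not tested. Ifit2 and Gbp3 lost their call without BaP replicate 3 (edgeR adjusted p = 0.200 and 0.293).

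**Figure D1:**
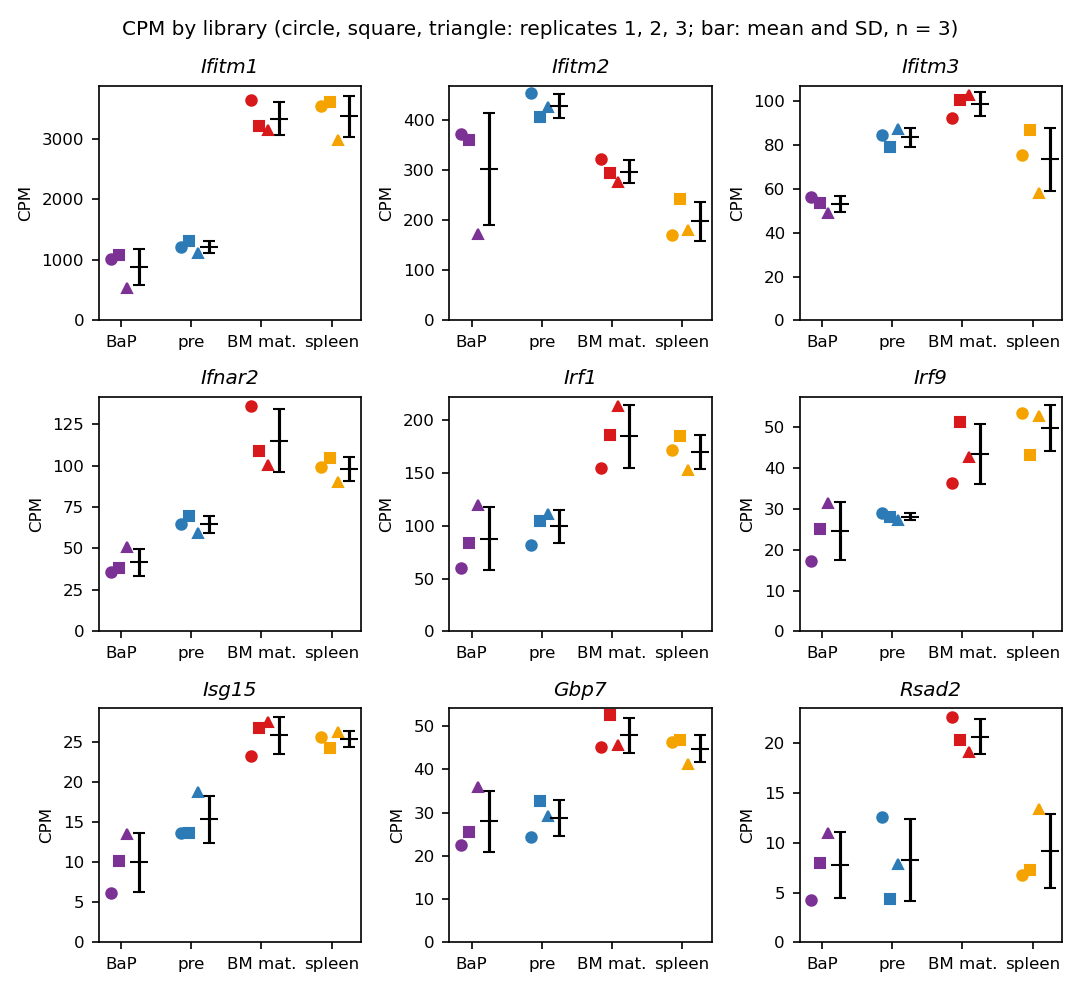
CPM of 9 members in each of the 12 libraries, with the 4 groups on the horizontal axis and CPM from 0 on the vertical axis. Circles, squares and triangles are replicates 1, 2 and 3, and the bar beside them is the mean with its SD (n = 3). Ifitm1 lies at 2980 to 3636 CPM in the mature groups and at 532 to 1317 CPM in the others, while Ifitm2 is highest in pre-basophils.

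The comparison of pre-basophils with BM mature basophils asks how the genes stand before and after the step to maturity within the marrow. Of 35 tested members, none was higher and 7 were lower in pre-basophils: Ifnar2, Irf1, Irf9, Isg15, Ifitm1, Gbp7 and Rsad2. Among all genes, 11.0% were called lower and 16.3% higher in pre-basophils. Ifitm2 was called higher under 4 of the alternatives, given with that gene below. At an unadjusted p under 0.05 the members numbered 10, with Ifitm2, higher, and Usp18 and Xaf1, lower, added. Fitted log2 fold changes were negative for 29 of 35 members, with a median of -0.52 against -0.00 for all genes. The libraries of the 2 groups did not overlap for 17 members that were lower in pre-basophils and for 1 that was higher, against 21.5% and 25.5% of all genes. With library totals alone in place of TMM, the median of all genes was 0.22, 26 of 35 members stayed negative with a median of -0.29, and Ddx58, Dhx58 and Stat2 changed sign.

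At the receptor, Ifnar2 (GRCm38 chr16:91372783-91405589), the chain with the long signalling tail, had 35.8, 38.2 and 51.0 CPM in BaPs, 64.6, 69.9 and 59.2 in the pre-basophils, 136, 109 and 100.3 in mature BM cells and 99.2, 105 and 90.0 in spleen cells. Every BM mature library lay above every pre-basophil library, and these above every BaP library (log2 fold change -0.83, SE 0.15, edgeR adjusted p = 0.00131 for pre-basophils against BM mature basophils). Its partner chain Ifnar1 (GRCm38 chr16:91485238-91507441) had 20.8, 28.5 and 49.8 CPM in BaPs, 26.3, 28.2 and 24.3 in the pre-basophils, 38.5, 40.6 and 34.3 in mature BM cells and 51.7, 40.9 and 39.97 in spleen cells. Pre-basophil libraries were again below those of BM mature cells, but the difference was not called (log2 fold change -0.52, SE 0.25, edgeR adjusted p = 0.136). BaP replicate 3 had more Ifnar1 than BaP replicates 1 and 2.

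Among the transcription factors, Irf1 (GRCm38 chr11:53770014-53778374), an early activator of interferon target genes, had 60.4, 83.7 and 119 CPM in BaPs, 81.9, 105 and 111 in the pre-basophils, 154, 186 and 213 in mature BM cells and 172, 185 and 153 in spleen cells. The pre-basophil and BM mature libraries did not overlap (log2 fold change -0.89, SE 0.21, edgeR adjusted p = 0.00594). Irf9 (GRCm38 chr14:55603571-55610030), the DNA-binding part of the STAT complex, had 17.2, 24.99 and 31.3 CPM in BaPs, 29.1, 28.0 and 27.2 in the pre-basophils, 36.3, 51.1 and 42.7 in mature BM cells and 53.3, 43.2 and 52.7 in spleen cells. The pre-basophil libraries lay within a narrow range below all mature libraries (log2 fold change -0.63, SE 0.19, edgeR adjusted p = 0.0258). This call was lost when any pre-basophil library or BM mature replicate 2 or 3 was left out (edgeR adjusted p between 0.0594 and 0.125).

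Irf7 (GRCm38 chr7:141262706-141266481), which amplifies type I interferon production, had 4.78, 12.7 and 24.1 CPM in BaPs, 14.8, 19.0 and 16.0 in the pre-basophils, 19.7, 29.0 and 25.3 in mature BM cells and 32.5, 38.6 and 34.8 in spleen cells. The spleen libraries were the highest and BaP replicate 1 the lowest, and the difference between pre-basophils and BM mature basophils was not called (log2 fold change -0.58, SE 0.36, edgeR adjusted p = 0.265). Stat2 (GRCm38 chr10:128270559-128292849), another part of that complex, had 16.5, 17.7 and 16.2 CPM in BaPs, 17.1, 20.9 and 19.8 in the pre-basophils, 17.5, 24.8 and 20.8 in mature BM cells and 21.4, 27.6 and 29.2 in spleen cells. All groups overlapped their neighbours in that order, and no pairwise comparison was called, although the F test over the 4 groups was (edgeR adjusted p = 0.0230). Library totals alone ended the calls of Irf1 (edgeR adjusted p = 0.0556) and Irf9 (edgeR adjusted p = 0.214).

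In the ISG15 system, Isg15 (GRCm38 chr4:156199424-156200818), a ubiquitin-like protein that is attached to other proteins, had 6.21, 10.1 and 13.6 CPM in BaPs, 13.7, 13.6 and 18.7 in the pre-basophils, 23.2, 26.8 and 27.5 in mature BM cells and 25.6, 24.3 and 26.3 in spleen cells. Pre-basophils lay below all mature libraries (log2 fold change -0.74, SE 0.22, edgeR adjusted p = 0.0240). The call was lost when pre-basophil replicate 1 or 2, or either of BM mature replicates 2 and 3, was left out (edgeR adjusted p between 0.0734 and 0.0956), and with library totals alone (edgeR adjusted p = 0.152). Usp18, the protease that removes ISG15 and dampens the receptor, was not called (log2 fold change -0.75, SE 0.30, edgeR adjusted p = 0.0858). It was called when the replicate number was a block over the 9 BM libraries (log2 fold change -0.76, adjusted p = 0.0367, edgeR), with only the 2 groups fitted (log2 fold change -0.78, adjusted p = 0.0484, edgeR), and without BM mature replicate 1 (log2 fold change -0.97, adjusted p = 0.0354, edgeR).

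The members that restrict virus at membranes did not follow a single pattern. Ifitm1 had 1014, 1087 and 532 CPM in BaPs, 1218, 1317 and 1118 in the pre-basophils, 3636, 3210.2 and 3143 in mature BM cells and 3531, 3598 and 2979.6 in spleen cells. The mature libraries held more than the other 6 libraries without overlap (log2 fold change -1.45, SE 0.21, edgeR adjusted p = 0.000203), and this was the only member still called when the test asked for a change beyond 1.5-fold. Ifitm2 (GRCm38 chr7:140954837-140955987), its neighbour on the chromosome, had 372, 359.5 and 172 CPM in BaPs, 453, 406 and 425 in the pre-basophils, 322, 293 and 275 in mature BM cells and 170.3, 242 and 181 in spleen cells. It was the member whose pre-basophil libraries all lay above the BM mature ones, but the difference did not pass (log2 fold change 0.53, SE 0.23, edgeR adjusted p = 0.103). It passed in edgeR without BaP replicate 3 (log2 fold change 0.53, adjusted p = 0.00148), with library totals alone (0.75, adjusted p = 0.00993), with no filter on low counts (0.53, adjusted p = 0.00294) and with only the 2 groups fitted (0.51, adjusted p = 0.000816). DESeq2, limma-voom and the replicate block did not call it.

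Within each library, the ratio of Ifitm1 to Ifitm2 counts does not depend on scaling between libraries. It was 2.73, 3.02 and 3.09 in BaP libraries, 2.69, 3.25 and 2.63 in pre-basophil libraries, 11.3, 10.9 and 11.4 in BM mature libraries and 20.7, 14.9 and 16.5 in spleen libraries. BaPs and pre-basophils overlapped, BM mature libraries lay above both, and the spleen libraries were highest. Pre-basophils had a mean of 2.86 ± 0.339, against a mean of 11.2 ± 0.245 in BM mature basophils (SD, n = 3). An exact permutation test of this difference, two-sided, gave p = 0.1, which is the lowest possible with 3 against 3. Of the 50-base words of Ifitm2's exons, 48.5% also occur in the annotated gene Gm45717, so the level of Ifitm2 is uncertain where reads were split. For Ifitm1 the share of words found in other genes was 5.02%. For Ifitm3 it was 10%, and Ifitm1 was the gene that shared the most of them. The far lower level of Ifitm3 is thus uncertain in the same way.

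Ifitm3 (GRCm38 chr7:141009586-141010770), which blocks fusion in endosomes, had 56.4, 53.7 and 49.0 CPM in BaPs, 84.4, 78.9 and 87.3 in the pre-basophils, 92.3, 100.7 and 103 in mature BM cells and 75.5, 86.6 and 58.0 in spleen cells. BaPs were lowest, and pre-basophils lay just below BM mature basophils without overlap and without a call (log2 fold change -0.24, SE 0.14, edgeR adjusted p = 0.226). Bst2 (GRCm38 chr8:71534255-71537456) had 65.9, 62.5 and 72.7 CPM in BaPs, 47.2, 40.7 and 49.9 in the pre-basophils, 43.6, 40.6 and 49.4 in mature BM cells and 51.7, 51.8 and 51.0 in spleen cells. The BaP libraries were highest, and pre-basophils and BM mature basophils overlapped (log2 fold change 0.04, SE 0.12, edgeR adjusted p = 0.828).

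Among the GTPases, Gbp7 (GRCm38 chr3:142530342-142550149), a guanylate-binding protein of cell-autonomous defence, had 22.5, 25.5 and 35.9 CPM in BaPs, 24.3, 32.6 and 29.3 in the pre-basophils, 45.2, 52.6 and 45.7 in mature BM cells and 46.4, 46.7 and 41.2 in spleen cells. Every mature library lay above every pre-basophil and BaP library (log2 fold change -0.73, SE 0.17, edgeR adjusted p = 0.00619), and the call was lost with library totals alone (edgeR adjusted p = 0.0980). Of its 50-base words, 12.7% also occur in Gm43802. Gbp2 (GRCm38 chr3:142620602-142638008), which acts on pathogen vacuoles, had 9.08, 12.3 and 15.6 CPM in BaPs, 15.9, 20.2 and 14.4 in the pre-basophils, 22.9, 15.8 and 24.5 in mature BM cells and 8.48, 11.2 and 6.37 in spleen cells. BM mature basophils had the highest mean and spleen mature basophils the lowest, and pre-basophils overlapped BM mature basophils (log2 fold change -0.33, SE 0.25, edgeR adjusted p = 0.367).

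Rsad2 (GRCm38 chr12:26442746-26456452), or viperin, an enzyme whose product ends viral RNA chains, had 4.30, 8.02 and 10.9 CPM in BaPs, 12.6, 4.38 and 7.84 in the pre-basophils, 22.6, 20.3 and 19.1 in mature BM cells and 6.72, 7.26 and 13.4 in spleen cells. BM mature basophils stood above all other libraries (log2 fold change -1.33, SE 0.38, edgeR adjusted p = 0.0178 against pre-basophils). That call did not hold when pre-basophil replicate 2, pre-basophil replicate 3 or the first BM mature replicate was left out (edgeR adjusted p = 0.0779, 0.0628 and 0.0526).

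None of the 6 sensors and none of the 7 tested IFIT and OAS genes was called by edgeR in this comparison, nor by DESeq2 or limma-voom, and none had an unadjusted p under 0.05. Zbp1 was called with only the 2 groups fitted, and Zbp1 and Ifit1 without BaP replicate 3. Log2 fold changes of the sensors ran from -0.55 to -0.14. Those of the IFIT and OAS genes ran from -1.14 to 0.49, at low levels. The largest mean of an IFIT or OAS gene in any group was 8.82 CPM, for Oas3 in the spleen. Oas1a shares 57.6% of its 50-base words with Oas1g and Ifit3 shares 51.2% with Ifit3b, so both are uncertain.

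Of the members with at least 5 CPM that edgeR called neither in a pairwise comparison nor over the 4 groups with all 12 libraries, several encode sensors or signals. Ddx58, the gene of the RNA sensor RIG-I, ran from 28.9 CPM in BaP replicate 1 to 46.5 CPM in BM mature replicate 1, and Ifih1, the gene of the RNA sensor MDA5, from 2.15 CPM in BaP replicate 1 to 12.2 CPM in spleen replicate 1. Zbp1, a sensor of Z-form nucleic acid, ran from 9.90 CPM in BaP replicate 2 to 26.2 CPM in BaP replicate 3. The extremes of Zbp1 thus both lay among the BaPs. Cxcl10, a chemokine for lymphocytes, ran from 11.5 CPM in BM mature replicate 2 to 38.1 CPM in pre-basophil replicate 3. Isg20, an RNA exonuclease, ran from 21.6 CPM in BaP replicate 3 to 42.4 CPM in spleen replicate 2. Pre-basophil libraries lay below BM mature libraries without overlap for Zbp1 and Isg20, and the groups overlapped in the other comparisons of these 5 genes.

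Without BaP replicate 3, which is in neither group but enters the shared estimate of the spread, 15 members were called, 14 lower and 1 higher in pre-basophils, against 15.8% and 19.8% of all genes in that fit. The 8 added were Ifitm2, higher, and Ifit1, Ifnar1, Irf7, Isg20, Rtp4, Xaf1 and Zbp1, lower. With only the 2 groups fitted, 15 members were also called, where Usp18 took the place of Ifit1 among the 8 added. With no filter on low counts, Ifnar1, Irf7, Mx1 and Xaf1, lower, and Ifitm2, higher, were added. The number called was 4 without pre-basophil replicate 2. Shares of all genes called were not set beside these last counts, so whether they are particular to the members was not tested.

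Most genes of dissociation and immediate-early stress moved with this comparison. Of the 15 genes on that list, 9 were lower in pre-basophils and none was higher, against 11.0% and 16.3% of all genes. The fits of Hspa1a, Hspa1b and Hspa8 were positive without a call (log2 fold change 1.76, 1.95 and 0.38). In BaPs against pre-basophils, 9 were called lower and none higher, against 4.29% and 2.79% of all genes. In spleen against BM mature basophils, 2 were called higher and 2 lower, against 3.16% and 4.67%. The summed level of the list was 23944 to 32546 CPM in BaPs, 46951 to 53366 CPM in pre-basophils, 98160 to 118657 CPM in BM mature and 117754 to 138974 CPM in spleen mature basophils. All 15 had counts in every library. Neutrophil markers summed to 1965 to 2411 CPM in BaPs and 996 to 2317 CPM in pre-basophils, and to 89.7 to 127 CPM in mature cells of the BM and 59.4 to 68.0 CPM in those of the spleen, and 8 of 8 were called higher in pre-basophils than in BM mature basophils. The neutrophil sums hide differences between libraries. Mpo had 1792, 1402 and 562 CPM in BaP replicates 1 to 3, while Ngp had 16.0, 106 and 401 CPM. In pre-basophil replicates 1 to 3, Ngp had 62.9, 141 and 367 CPM. Ltf, Camp, S100a8, S100a9 and Lcn2 rose in the same order in both groups. The part of either list in the interferon-stimulated genes was not tested.

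**Figure D2:**
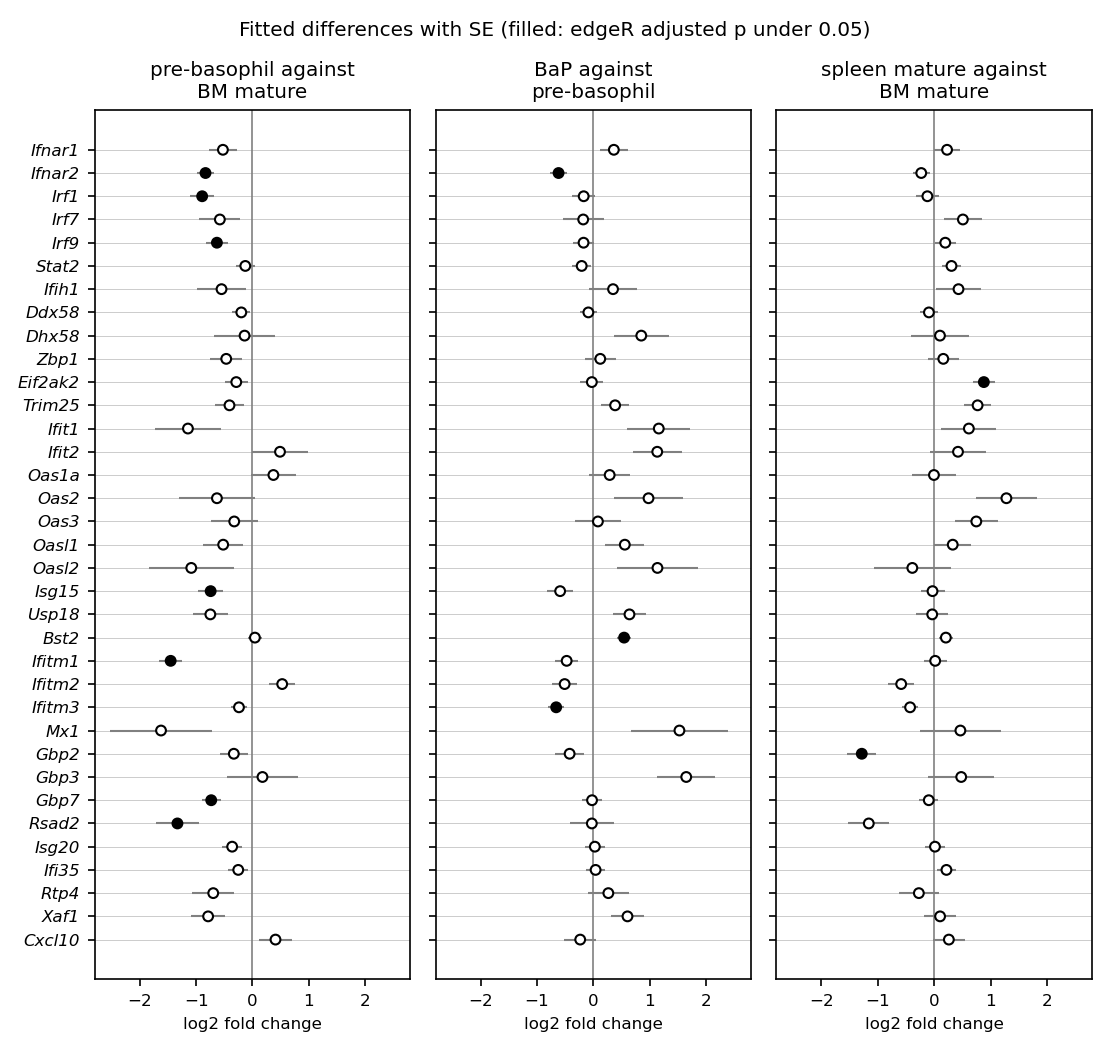
Fitted log2 fold changes of the 35 tested members, ordered by role, in the 3 comparisons, with bars of 1 SE and a line at 0. Filled points had an edgeR adjusted p under 0.05. There are 7 filled points, all left of 0, for pre-basophils against BM mature basophils, 3 for BaPs against pre-basophils and 2 for spleen against BM mature basophils.

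The comparison of BaPs with pre-basophils asks about the step marked by loss of CD34. Bst2 was higher in BaPs (log2 fold change 0.55, SE 0.12, edgeR adjusted p = 0.0173), while Ifnar2 (log2 fold change -0.62, SE 0.16, edgeR adjusted p = 0.0321) and Ifitm3 (log2 fold change -0.66, SE 0.14, edgeR adjusted p = 0.0140) were lower. These were the members called, 1 higher and 2 lower of 35, against 2.79% and 4.29% of all genes. The 3 libraries per group did not overlap for 2 members that were higher and 5 that were lower in BaPs, against 12.1% and 13.0% of all genes. The counts without BaP replicate 3 were 3 and 9, against 21.7% and 22.5%. The fitted values were positive for 20 members and negative for 15, with a median of 0.08 against 0.02 for all genes. With library totals alone, 27 were positive, the median of all genes was 0.23, and Ifnar2 and Ifitm3 lost their calls (edgeR adjusted p = 0.187 and 0.0604).

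None of the 3 calls held in every set of libraries. Gbp3 was called higher in BaPs with library totals alone, with repeated TMM and with no filter (adjusted p = 0.0432, 0.0438 and 0.0184, edgeR), and Ifitm1 and Ifitm2 were called lower with no filter (adjusted p = 0.0185 and 0.00942, edgeR). With the replicate number as a block over the 9 BM libraries, Ifnar2 had an edgeR adjusted p of 0.0568. Its adjusted p was 0.0786 and 0.0740 without BaP replicates 1 and 2, and 0.0905, 0.124 and 0.0689 without pre-basophil replicates 1, 2 and 3 (edgeR). Bst2 lost its call without pre-basophil replicate 1 or 2 (edgeR adjusted p = 0.0532 and 0.0971), and Ifitm3 without pre-basophil replicate 1 or 3 (edgeR adjusted p = 0.0598 and 0.0653). No member was called without pre-basophil replicate 1, and 1 was called without replicate 2 or without replicate 3. All genes called changed in number between such fits too, as given in the last section.

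BaP replicate 3 held most of the family at a higher level than the other BaP libraries. It was the highest of the 3 for 31 of 38 members (81.6%) and the lowest for 5 (13.2%), while among all tested genes it was highest for 39.2% and lowest for 39.97%. Averaged over the 35 tested members, its log2 CPM lay 0.49 above the group mean, against -0.34 and -0.15 for replicates 1 and 2, and over all tested genes it lay 0.09 above. The 5 members lowest in it were Ifitm1, Ifitm2, Ifitm3, Isg20 and Stat2. Ifitm1 and Ifitm2 were at 532 and 172 CPM in replicate 3, below both other BaP libraries. Ifit2 (GRCm38 chr19:34550694-34576419), which binds viral RNA, had 2.87, 6.37 and 9.97 CPM in BaPs, 1.68, 4.63 and 2.72 in the pre-basophils, 1.91, 2.003 and 2.43 in mature BM cells and 2.56, 2.15 and 3.85 in spleen cells. BaP replicates 2 and 3 were the highest of all 12 libraries, and BaP replicate 1 lay within the range of the pre-basophils.

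Other genes stood out in the same library. Ifng, which encodes interferon gamma, had 787 counts there (76.2 CPM) and 0 to 44 counts in each of the other 11 libraries. Its receptor chain Ifngr1 had 36.8, 27.3 and 193 CPM in BaPs, 31.9, 32.9 and 36.0 in the pre-basophils, 25.1, 30.5 and 34.1 in mature BM cells and 25.3, 30.7 and 22.7 in spleen cells, so BaP replicate 3 was above every other library. Ifnb1, Ifna2, Ifnl2 and Ifnl3 had 0 to 2 counts per library, in BaP replicate 3 too. NK cell markers summed to 2.63, 4.01 and 405 CPM in BaP replicates 1 to 3, B cell markers to 40.1, 40.5 and 316 CPM, monocyte and macrophage markers to 32.0, 23.1 and 231 CPM and erythroid genes to 8.84, 11.3 and 2400.0 CPM. T cell markers summed to 16.7, 14.4 and 434 CPM, and of the 8, all had counts in the BaP group. In pre-basophils the same sums were 3.35 to 10.7, 39.7 to 61.4, 14.8 to 24.8, 42.8 to 56.0 and 15.7 to 19.2 CPM. The neutrophil gene Ngp, given above, was also highest in replicate 3 among the BaP libraries. The part of these cell types in the members' values was not tested.

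Without BaP replicate 3, the fitted differences turned from mostly positive to mostly negative. The fit was then lower in BaPs for 26 of 35 members, with a median of -0.22 against -0.01 for all genes, and 11 members changed sign: Ifi35, Ifih1, Ifit1, Ifnar1, Mx1, Oas1a, Oas2, Oas3, Rtp4, Trim25 and Zbp1. Called were Bst2, higher (log2 fold change 0.49, adjusted p = 0.0199), and 4 lower members, against 5.97% and 6.47% of all genes called higher and lower in that fit. The 4 were Ifnar2 (log2 fold change -0.79, adjusted p = 0.00165), Ifitm3 (log2 fold change -0.59, adjusted p = 0.0144), Irf7 (log2 fold change -0.91, adjusted p = 0.0432) and Isg15 (log2 fold change -0.92, adjusted p = 0.0143), all by edgeR. With only BaP replicates 1 and 2 in the BaP mean, 23 of 35 members (65.7%) had group means that rose from BaPs to pre-basophils and again to BM mature basophils, against 34.6% of all tested genes. With all 3 BaP libraries the count was 13 (37.1%), against 29.5%.

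**Figure D3:**
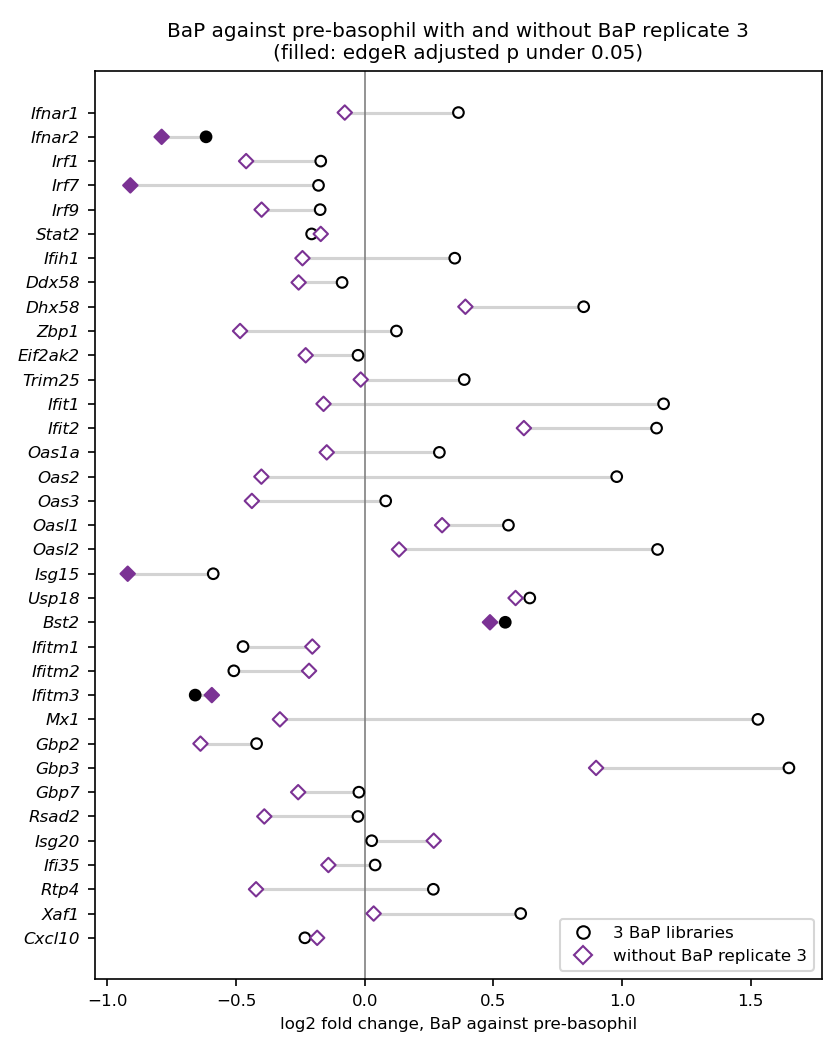
Log2 fold changes of the 35 tested members for BaPs against pre-basophils, with 3 BaP libraries (black circles) and without BaP replicate 3 (purple diamonds). Filled symbols had an edgeR adjusted p under 0.05. Most diamonds lie left of their circles, and Ifitm1, Ifitm2, Ifitm3 and Isg20 are among those that move to the right.

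The comparison of spleen with BM mature basophils asks whether cells of one surface phenotype differ by organ. Eif2ak2 was higher and Gbp2 lower in the spleen, 1 member in each direction, against 3.16% and 4.67% of all genes. Fitted values were positive for 22 of 35 members, with a median of 0.16 against 0.01 for all genes. The libraries did not overlap for 6 members higher and 4 lower in the spleen, against 16.6% and 17.1% of all genes. With library totals alone, 28 members were positive and the median of all genes was 0.14.

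Eif2ak2 (GRCm38 chr17:78852564-78882573), which encodes PKR, the kinase that halts translation on double-stranded RNA, had 17.2, 18.9 and 25.6 CPM in BaPs, 17.3, 24.6 and 21.6 in the pre-basophils, 29.3, 23.0 and 25.6 in mature BM cells and 41.3, 41.3 and 60.4 in spleen cells. The 3 spleen libraries were above all others (log2 fold change 0.88, SE 0.20, edgeR adjusted p = 0.0192). The call was lost without any 1 of the BM mature libraries or without spleen replicate 3 (edgeR adjusted p between 0.0545 and 0.0917). Trim25 (GRCm38 chr11:88999376-89020293), a ubiquitin ligase of the RIG-I pathway, had 13.1, 16.5 and 28.1 CPM in BaPs, 15.7, 16.3 and 13.6 in the pre-basophils, 14.0, 23.3 and 22.3 in mature BM cells and 34.6, 33.7 and 34.4 in spleen cells. The spleen libraries lay close together above all others, but the difference missed the threshold (log2 fold change 0.77, SE 0.24, edgeR adjusted p = 0.0674). It passed with DESeq2 (adjusted p = 0.0375) and, in edgeR, with repeated TMM, with no filter, with the replicate block, with only the 2 groups fitted and without BaP replicate 1 or 3 (adjusted p between 0.00267 and 0.0437), and not with limma-voom or library totals alone.

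Gbp2 was at 15.8 to 24.5 CPM in BM mature basophils and 6.37 to 11.2 CPM in the spleen, without overlap (log2 fold change -1.29, SE 0.26, edgeR adjusted p = 0.0121). That call was lost without BM mature replicate 1 or 3 or spleen replicate 3 (edgeR adjusted p = 0.0526, 0.0552 and 0.0686). Rsad2 was also below BM mature basophils in every spleen library and missed the threshold (log2 fold change -1.16, SE 0.36, edgeR adjusted p = 0.0651). It passed with DESeq2 (adjusted p = 0.0217), with limma-voom (adjusted p = 0.0449) and, in edgeR, with repeated TMM, with no filter, with the replicate block, with only the 2 groups fitted and without BaP replicate 1 or 3 (adjusted p between 0.000317 and 0.0414), and not with library totals alone. Ifitm1 overlapped between the organs, at 2979.6 to 3598 CPM in the spleen and 3143 to 3636 CPM in the BM (log2 fold change 0.02, SE 0.20, edgeR adjusted p = 0.974), and repeated TMM turned the sign of this small value. Ifitm2 (log2 fold change -0.59, SE 0.23, edgeR adjusted p = 0.131) and Ifitm3 (log2 fold change -0.43, SE 0.14, edgeR adjusted p = 0.0741) were lower in all 3 spleen libraries than in any BM mature library without passing the test. Ifitm2 passed with no filter (adjusted p = 0.00395, edgeR), and both passed with only the 2 groups fitted, as did Irf7 and Oas2.

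Without BaP replicate 3, 7 members were called between the organs, against 7.99% of genes higher and 10.0% lower. Those added were Oas2 and Trim25, higher in the spleen, and Ifitm2, Ifitm3 and Rsad2, lower. No member was called without BM mature replicate 1, BM mature replicate 3 or spleen replicate 3, 1 was called without BM mature replicate 2, and 4 were called without BaP replicate 1. The number of all genes called also changed when 1 library was left out, as given in the last section. B cell markers summed to 276 to 529 CPM in spleen libraries and 47.7 to 67.8 CPM in BM mature libraries, with 4 of 8 called higher in the spleen. Their part in these values was not tested.

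A list of 104 further genes of the pathway, 97 of them in the table and 81 tested, gives the setting. Between pre-basophils and BM mature basophils, 9 were called higher (11.1%) and 16 lower (19.8%) in pre-basophils, against 16.3% and 11.0% of all tested genes. The fit without BaP replicate 3 called 11 and 32 of 80, against 19.8% and 15.8%. The values ranked next are those of genes called with all 12 libraries. Ifitm6 (3.62 ± 0.74, log2 fold change ± SE), the DNA sensor Cgas (2.18 ± 0.30) and the kinase gene Ikbke (1.16 ± 0.40) had the largest values. Samhd1, a restriction factor that degrades nucleotides (-2.07 ± 0.35), Slfn2 (-1.75 ± 0.25) and Socs1, a feedback inhibitor of JAK kinases (-1.44 ± 0.36), had the smallest. Ifitm6 was thus higher and Ifitm1 lower in the same group of libraries, and the neutrophil markers given above were higher there too. The part of neutrophil cells in Ifitm6 was not tested.

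Between BaPs and pre-basophils, 6 of the 81 were called higher (7.41%) and 3 lower (3.70%) in BaPs, against 2.79% and 4.29% of all tested genes. Without BaP replicate 3, 3 of 80 were called higher and 14 lower, against 5.97% and 6.47%, and Gbp9, Irf8 and Ifi203 were no longer among them. Gbp9 (5.59 ± 1.51, log2 fold change ± SE), the transcription factor gene Irf8 (4.35 ± 1.22) and Ifi203 (2.74 ± 0.75) led. Gbp9 had 212 counts in BaP replicate 3 and 1 and 4 counts in BaP replicates 1 and 2, and Irf8 had 663 against 8 and 5, so both values rest on that library. The kinase gene Jak2 (-0.75 ± 0.14), the adaptor gene Myd88 (-0.59 ± 0.16) and Ms4a6b (-0.53 ± 0.12) were lower.

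Between spleen and BM mature basophils, 7 were called higher (8.64%) and 1 lower (1.23%) in the spleen, against 3.16% and 4.67% of all tested genes. In the fit without BaP replicate 3, 15 and 5 of 80 were called, against 7.99% and 10.0%. The higher ones included Irf4, a lymphoid transcription factor (4.50 ± 1.12, log2 fold change ± SE), Igtp, an immunity-related GTPase (1.27 ± 0.34), Slfn2 (1.17 ± 0.23), Ptpn6 (0.71 ± 0.10) and Parp10 (0.59 ± 0.16). The lower one was Ms4a6b (-0.80 ± 0.12), and all these values are from the fit with all 12 libraries. The B cell markers given above were also higher in the spleen, and their part in Irf4 was not tested.

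**Figure D4:**
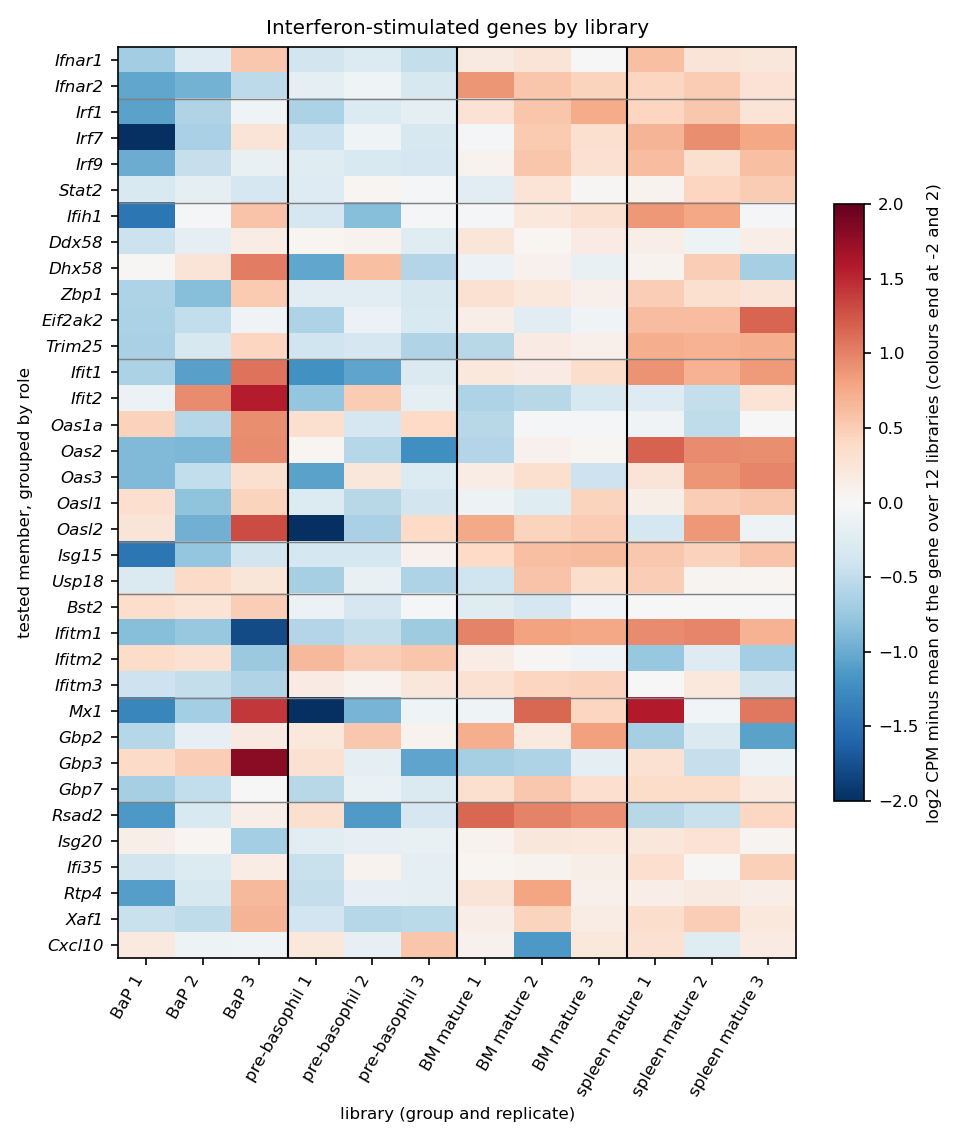
Log2 CPM of the 35 tested members minus each gene's mean over the 12 libraries, with libraries as columns and genes as rows grouped by role. Red is above the gene's mean and blue below, and colours end at -2 and 2. BaP replicate 3 is red for most rows and blue for several, among them Ifitm1, Ifitm2, Ifitm3, Isg20, Ifnar2, Isg15 and Stat2. The mature groups on the right are mostly red.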

How the data were processed

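Sorted cells were lysed, polyadenylated RNA was captured on beads, and complementary DNA was amplified by PCR before fragmentation and sequencing. The authors trimmed reads with cutadapt 3.4, mapped them with Bowtie2 2.4.2 to reference transcripts and deposited raw counts per gene. Their methods name GRCm38, whereas the submitters' processing notes name GRCm39 (mm39). The strand setting of the counting and the rule for multi-mapping reads are not given in the sources used, so values of near-identical or overlapping genes are uncertain. No molecular identifiers are mentioned, so PCR copies count as reads and limits from counts cover counting error only.

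The members and the pathway and marker lists were chosen with earlier results of these data known. In edgeR 4.0.16 under R 4.3.3, low genes were removed with filterByExpr and counts were scaled by TMM (factors 0.844 to 1.30) and fitted in 1 quasi-likelihood model over all 12 libraries. P-values were adjusted by Benjamini-Hochberg over the 15083 tested genes, and genes under 0.05 were called. SEs were derived from the log2 fold change and its F statistic. Alternatives were DESeq2 1.42.0, library totals alone, repeated TMM with a likelihood ratio test (the scheme of the study's package, rebuilt in edgeR), no filter, limma-voom (limma 3.58.1), a minimum change of 1.5-fold, each pair of groups alone, a replicate block, and leaving out each library. The fit was tested on simulated data first.

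Values in every library are given for members called in any test with a mean of at least 5 CPM in a group, and for both receptor chains. Of the pathway list, the 3 highest and the 3 lowest fold changes among called genes are named. Coordinates, exon lengths and 50-base words are from GENCODE M21 (GRCm38), and promoters from RefSeq (GRCm38.p6). Replicates are pools of 4 animals, and nothing in the labels says that the numbers mark shared animals or days. Deviations of same-numbered libraries correlated at 0.138, 0.153 and 0.223 between pre-basophils and BM mature basophils, at 0.228, 0.125 and 0.262 between BaPs and pre-basophils, and at 0.0206, 0.00763 and 0.0254 between spleen and BM mature basophils. The numbers may thus mark pairs among the 9 BM libraries, which the labels do not settle, and the main fit has no replicate term. Replicate 3 also held the most counts in every group. A block over the 9 BM libraries, and BaP means and overlap counts without BaP replicate 3, were added after the data were seen. Every pair of replicates differed by more than sampling noise (chi-square per degree of freedom 4.16 to 35.0).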

Additional observations from a re-analysis of the deposited data

How the results depend on the processing

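No called member changed direction under any alternative. For pre-basophils against BM mature basophils, the 7 called members became 4 with library totals alone (Ifnar2, Ifitm1 and Rsad2, lower, and Ifitm2, newly called higher), 12 with no filter, 1 with a minimum change of 1.5-fold, 15 with only the 2 groups compared, and 4 to 15 when 1 library was left out. The genes called, 4112, became 1219 with the 1.5-fold minimum. For BaPs against pre-basophils, the 3 called members became 6 with no filter, 0 with the 1.5-fold minimum, 1 with only the 2 groups and 0 to 5 when 1 library was left out. The genes called, 1068, became 1620 with library totals alone, 2091 with no filter, 51 with the 1.5-fold minimum, 375 with only the 2 groups and 382 to 1831 when 1 library was left out. For spleen against BM mature basophils, the 2 called members became 4 with DESeq2, with repeated TMM and with the replicate block, 5 with no filter, 0 with the 1.5-fold minimum, 8 with only the 2 groups and 0 to 7 when 1 library was left out. The genes called, 1181, became 1796 with no filter, 62 with the 1.5-fold minimum, 2340 with only the 2 groups and 241 to 2653 when 1 library was left out. The causes of these shifts were not tested, except that the 1.5-fold minimum asks for a larger change by construction.

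Library totals alone moved the split of calls. Called higher were 3703 of 4487 genes in place of 2460 of 4112 for pre-basophils against BM mature basophils, 1290 of 1620 in place of 421 of 1068 for BaPs against pre-basophils, and 657 of 1085 in place of 477 of 1181 for spleen against BM mature basophils. With them the mean summed level of the members was 2124 CPM in BaPs and 4014 CPM in BM mature basophils. Under TMM, as in the main results, the sums without Ifitm1 were 949, 1109, 1260 and 1171 CPM from BaPs over pre-basophils to mature BM and spleen cells. The F test called 13 to 26 members under all alternatives. The replicate block over 12 libraries added Rsad2 (log2 fold change -1.21, edgeR adjusted p = 0.0408) and Trim25 (log2 fold change 0.80, edgeR adjusted p = 0.0376) between spleen and BM mature basophils. Same-numbered libraries of these groups were barely correlated. The block changed no other call of a member. The members under 5 CPM rest on few counts per library.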
